A study of Mus musculus with 4 samples.

Results

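Genes that lie almost wholly inside the exons of a gene on the other DNA strand were described in RNA sequencing libraries of mouse T-helper 2 (Th2) cells. A gene was taken as nested when 90% or more of its merged exonic bases lay inside exons of 1 gene on the opposite strand, which is called its host. Of 50600 genes in the files, 549 met this rule outside chrM, chrX and chrY, in 506 hosts. In 17 pairs each gene was nested in the other, so the 549 genes formed 532 pairs, and in those 17 the shorter gene is called the nested one. The choice used coordinates only and no count.

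Overlapping genes on opposite strands are common in mammalian genomes. The 2 transcripts of such a pair are complementary over the shared bases, so a sequenced fragment can be assigned to 1 of them only if the library keeps the strand of the RNA. Many of the inner genes are antisense transcripts, pseudogenes or small RNAs predicted by similarity, and their hosts are mostly protein-coding genes. microRNA (miRNA) genes are a special case, in which a hairpin can be annotated on each strand of the same site.

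The cells were primary T-helper 2 cells of the mouse strain C57BL/6NJ, a CD4 T cell type that makes interleukins 4, 5 and 13. All 4 libraries form 1 group, with biological replicate numbers from 1 to 4, separate biosamples and a common donor identifier. Age and developmental stage are unknown and sex was not collected. A protocol for differentiating CD4+ T cells is named but no further treatment, and 72 h stands in the file headers. The assay is labelled total RNA-seq, whereas the library protocol is titled for PolyA+ RNA. Because the libraries share a donor, their spread, on which the p-values rest, may be technical. Replicates 1, 3 and 4 held 2388255, 1929880 and 1713199 gene counts and are used below, while replicate 2 held 5016. All 8 T cell markers had counts in those libraries, with sums of 1390, 776 and 957, and so had all 7 Th2 markers, with sums of 552, 264 and 404. Of these, 2 T cell and 3 Th2 markers have opposite-strand exons. The Th2 marker Il5 had 16, 7 and 11 counts. Of 6 myeloid markers 2 did, with sums of 1091, 910 and 879, nearly all from Csf1r, which itself has opposite-strand exons. Of 5 stromal and epithelial markers 2 did, with sums of 84, 70 and 79, nearly all from Pecam1, which has no opposite-strand exons. B cell markers summed to 19, 12 and 25, and the cytotoxic, mast cell and erythroid lists to at most 3. The Th2 sums lay below the myeloid sums in each library, and cell identity was not tested by these lists.

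Counting was strand-specific, with a fragment assigned to a gene when read 1 lay on its strand, per the file headers. The sources used here do not give the strand that read 1 follows in this library kit. RNA made from a nested gene and RNA made from its host thus cannot be told apart by these counts, and every value below is a statement on the annotated strand. Densities are counts divided by the kilobases (kb) of merged exon. They are not scaled for library depth, so the genes of a pair are compared within a library.

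The complementarity is shown first for nested genes that overlap the start or stop codon of their host. Each line runs 5′ to 3′ on the strand of the nested gene and covers coding bases of the host only. Capitals mark the complement of the host's start codon (in Gm24157 and Mir762) or of its stop codon (in the others). The bases are those of GENCODE vM21 transcripts in mm10 coordinates: Gm20721 opposite Gnas at chr2:174346329-174346388, Gm17041 opposite Cish at chr9:107300477-107300536, Gm12214 opposite Il5 at chr11:53723955-53724014, Gm24157 opposite Ppp2ca at chr11:52099049-52099108, Mir762 opposite Bcl7c at chr7:127708487-127708527 and Mir6340 opposite Rab22a at chr2:173701060-173701119. Mir762 is on the plus strand and the other 5 are on the minus strand.
Gm20721: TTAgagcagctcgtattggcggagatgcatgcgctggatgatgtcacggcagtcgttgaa
Gm17041: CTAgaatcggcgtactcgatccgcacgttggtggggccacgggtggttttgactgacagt
Gm12214: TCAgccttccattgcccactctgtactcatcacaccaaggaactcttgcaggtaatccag
Gm24157: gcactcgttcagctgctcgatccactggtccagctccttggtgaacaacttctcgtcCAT
Mir762: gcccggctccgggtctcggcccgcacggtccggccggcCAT
Mir6340: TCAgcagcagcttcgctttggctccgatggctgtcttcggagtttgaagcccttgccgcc
All 6 nested genes were counted in each of replicates 1, 3 and 4, and their values are given with their hosts below.

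Nested genes held a larger share of the counts than of the exonic bases, as did all genes with an opposite-strand exon. Those 8001 genes, with 25.7% of the bases, took 88.0%, 91.6% and 88.6% of the counts in replicates 1, 3 and 4. With 0.286% of all exonic bases the nested genes took 10.7% of the counts in replicate 1, 10.8% in replicate 3 and 10.3% in replicate 4, or 10.6% ± 0.259 (SD, n = 3). The widest Wilson 95% interval of these 3 shares ran from 10.3 to 10.4. Such intervals, and the floors used below, hold for counting error only, because reads were not collapsed to molecules. The 5 nested genes with most counts alone took 4.9% ± 0.146 (SD, n = 3). The 506 hosts, with 2.29% of the exonic bases, took 7.08%, 8.35% and 9.39%. Much of that was a single gene. Without CT010467.1, a multi-copy ribosomal RNA annotation on chromosome 17, the hosts took 3.6%, 3.62% and 3.49%.

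A count was not found for every nested gene. Of the 549, 331 had at least 1 count in replicates 1, 3 and 4 together and 281 had one in each of them, while 218 had none. The share with any count was 60.3%, against 37.0% of all genes outside chrM, chrX and chrY. For a gene without counts, a level of up to 3 counts per library is allowed, or 1.26 to 1.75 CPM (counts scaled to a common library total). The median nested gene of the pairs spanned 347 exonic bases (range 39 to 6243) and the median host 4392. In 350 of the 532 pairs the nested gene had a single exon.

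In pooled counts per kb the nested gene was the higher one in 298 of the 532 pairs and the host in 106, and 128 pairs had no count at all. The pairs with 30 or more counts in replicates 1, 3 and 4, 290 in number, were tested with edgeR. In 229 of them the nested gene was called higher, or 79.0%, at an adjusted p under 0.05. Among all 2993 tested pairs of genes with overlapping exons on opposite strands, the shorter gene was called higher in 65.7%. The host was called higher in 47 nested pairs, or 16.2%, against 26.1% of all pairs for the longer gene. Among the 2703 tested pairs that were not nested, the calls were 1738 for the shorter and 734 for the longer gene. Pairs overlapping at their 3′ ends gave 622 and 324 calls of 1043, and pairs overlapping at their 5′ ends 598 and 283 of 967. The difference between these shares was not tested.

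The 229 pairs with the nested gene higher in each of the 3 libraries compare with 67.4% of all pairs by the same count. In 56 nested pairs the host was higher in each library (28.0% of all pairs), and in 5 the order changed between libraries. The median host density was 0.634% of the nested density in replicate 1, 0.254% in replicate 3 and 0.568% in replicate 4, over the 290 pairs. The differences were large. Of the 229 pairs called for the nested gene, 206 differed by 10-fold or more, 160 by 100-fold or more and 56 by 1000-fold or more. In 11 of these the host had no count, and a floor of 3 counts over the 3 libraries was put in its place. A fragment that touches a short gene by 1 base is counted for it, so the density of short genes is raised. With 500 bases added to each length, 221 pairs were called for the nested gene and 56 for the host.

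**Figure D1:**
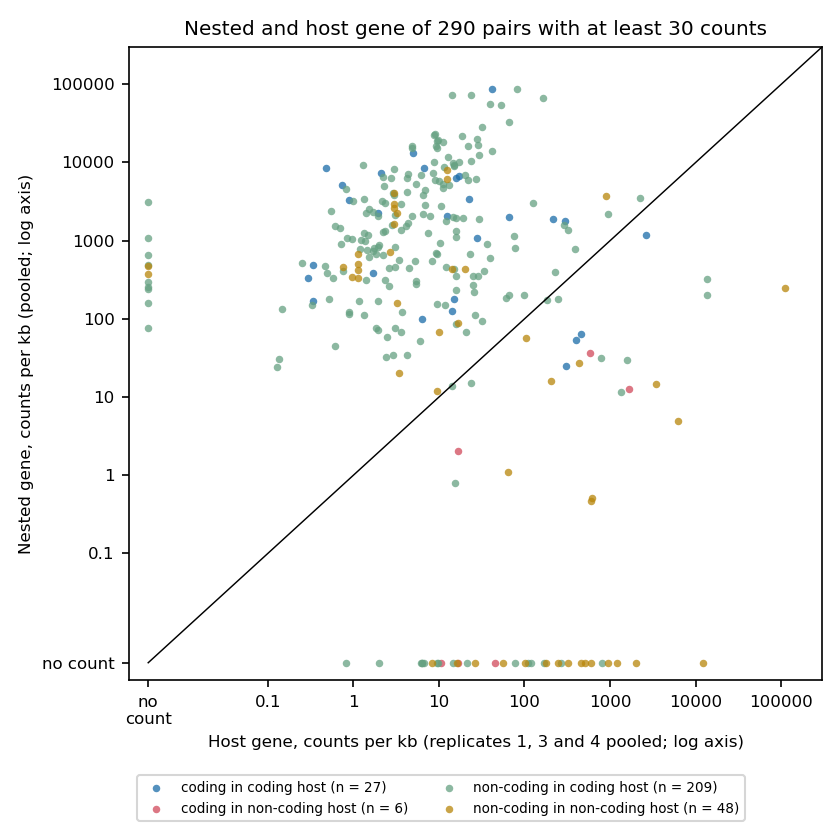
Counts per kb of the nested gene against those of its host, replicates 1, 3 and 4 pooled, for the 290 pairs with at least 30 counts. Both axes are logarithmic, a gene without counts is placed at the mark "no count", the line marks equal density and the colours give the 4 kinds of pair. Most points lie far above the line, and the pairs of a coding gene in a non-coding host lie below it.

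The 20 nested genes with the highest density carried 393170 counts and their hosts 2720. Their pooled densities ran from 16221 to 87598 per kb, and those of their hosts from 4.85 to 167 per kb. The ratio of the 2 was between 400.2-fold and 5045-fold, and no adjusted p was above 1.6e-06. By annotation 10 were antisense genes, 6 miRNAs, 2 processed transcripts, 1 protein-coding and 1 a small nuclear RNA. Most of the bases lay in the host's 3′ UTR for 10 of them, in its coding sequence for 9 and in other exonic sequence for 1. Because these 20 pairs were chosen for a high nested density, their ratios and p-values favour the nested gene by that choice. Over all opposite-strand pairs the shorter gene was called higher in 65.7%.

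Gm20721, annotated as protein-coding, lies at 174330319 to 174346712 on chromosome 2 (mm10, minus strand) inside Gnas, which encodes the G-protein alpha subunit that stimulates adenylyl cyclase. It had 34369, 28518 and 24712 counts per kb in replicates 1, 3 and 4. Gnas had 20.5, 8.94 and 12.2, so its density was the lower one in each library. The fitted log2 ratio was 11.1 ± 0.43 (SE, adjusted p = 4.8e-07). Gm20412 reached 32066, 32769 and 22333 counts per kb opposite the transglutaminase gene Tgm2, which had 43.0, 16.1 and 23.4. These densities are not scaled for depth, and replicate 4, the smallest library used, was the lowest for both nested genes. In both pairs the densities of nested gene and host did not overlap.

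Gm11175 lies in the single exon of Jund, an AP-1 transcription factor gene, mostly in its coding sequence, at 70699162 to 70700080 on chromosome 8. It had 31007, 18710 and 16981 counts per kb while Jund had 96.5, 37.8 and 32.4, with a log2 ratio of 8.76 ± 0.35 (SE, adjusted p = 4.8e-07). This was the smallest ratio of the 20. The largest belonged to Gm22953, a predicted miRNA of 101 bases in Serf2, at 29782, 23713 and 18644 counts per kb against 7.33, 4.22 and 2.75. Its log2 ratio was 12.34 ± 0.34 (SE, adjusted p = 4.8e-07).

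Further hosts of these 20 had other roles. Ppp2ca encodes the catalytic subunit of protein phosphatase 2A, and its nested Gm24157 had 21613, 18658 and 15090 counts per kb against 19.8, 8.28 and 11.7. Ptbp1 encodes a splicing regulator, Sec61a1 a subunit of the protein channel of the endoplasmic reticulum, Coro1c an actin-binding coronin and Rhoa a small GTPase of the cytoskeleton. Gm17134 in Ptbp1 had 11616, 8929 and 7618 counts per kb. Gm44170 in Sec61a1 had 9067, 7570 and 6805 counts per kb, against 5.05, 0.297 and 3.71 in the host, where replicate 3 was the lowest. Gm45507 in Bnip3, a mitophagy receptor gene, had 5913, 6871 and 3545 counts per kb and its host 4.42, 2.21 and 2.65.

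**Figure D2:**
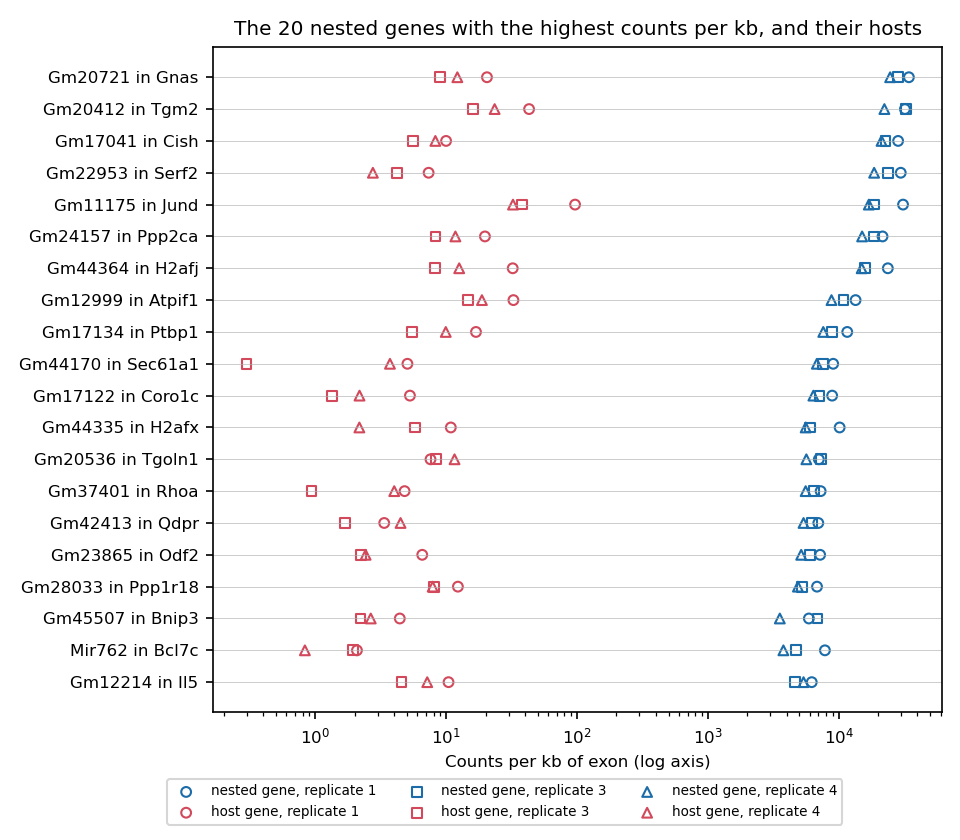
Counts per kb of exon (log axis) of the 20 nested genes with the highest pooled density (blue) and of their hosts (red), 1 symbol per replicate. In each pair and each of the 3 replicates the nested gene lies above its host. The choice of pairs by nested density favours this order.

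Of a list of T cell genes, 4 were hosts of a nested gene and none was nested, and in all 4 pairs the nested gene was called higher (65.7% over all opposite-strand pairs). Cish encodes a SOCS protein induced by cytokines through STAT5. Gm17041, antisense to it, had 28436, 22808 and 21236 counts per kb while Cish had 9.97, 5.61 and 8.26. The log2 ratio was 11.58 ± 0.36 (SE, adjusted p = 4.8e-07). Gm12214 lies at 53723953 to 53724618 on chromosome 11 opposite the last exon of Il5, the gene of the eosinophil growth factor interleukin 5. It had 6218, 4621 and 5381 counts per kb and Il5 had 10.4, 4.55 and 7.16, which came from 16, 7 and 11 counts. The log2 ratio was 9.52 ± 0.31 (SE, adjusted p = 4.8e-07).

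Gm15655 had 311, 330 and 198 counts per kb opposite Maf, a transcription factor gene that promotes interleukin 4, which had 0.728, 0.364 and 0.849. The fourth pair was closer to equal. Gm12534 had 751, 778 and 644 counts per kb and its host Il21, a cytokine gene of helper T cells, had 299, 437 and 217. The log2 ratio was 1.24 ± 0.23 (SE, adjusted p = 0.001), and the nested gene was the higher one in each of the 3 libraries.

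**Figure D3:**
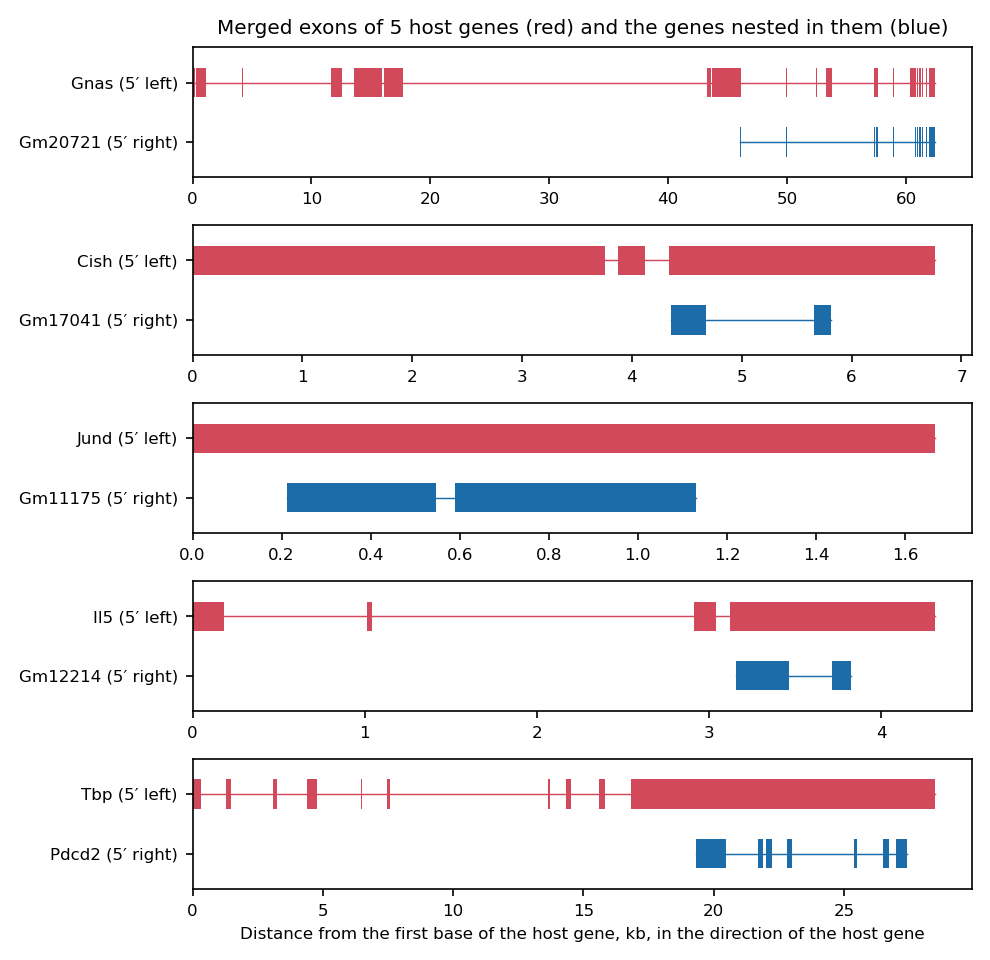
Merged exons of 5 host genes (red, 5′ end at the left) and of the gene nested in each (blue, 5′ end at the right), by distance in kb from the first base of the host. Gm20721 follows several exons of Gnas, Gm17041, Gm12214 and Pdcd2 lie within long exons near the 3′ end of the host, and Gm11175 lies in the single exon of Jund.

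The pairs were then divided by the kind of their genes. Of 325 pairs of a non-coding gene in a protein-coding host, 209 were tested, of which 183 were called for the nested gene and 14 for the host. Of 10 pairs of a coding gene in a non-coding host, 6 were tested, and all 6 were called for the host. In pairs of 1 coding and 1 non-coding gene, the non-coding gene was called higher in 189 of 215 and the coding gene in 14. Where both genes were coding, 23 of 27 tested pairs were called for the nested gene and 4 for the host. Where both were non-coding, the 48 tested pairs split into 23 and 23. The shares of nested and host calls stand beside 65.7% for the shorter and 26.1% for the longer gene over all pairs. For non-coding against coding genes no share over all pairs was computed, so the 189 of 215 has none beside it. The difference between kinds was not tested.

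**Figure D4:**
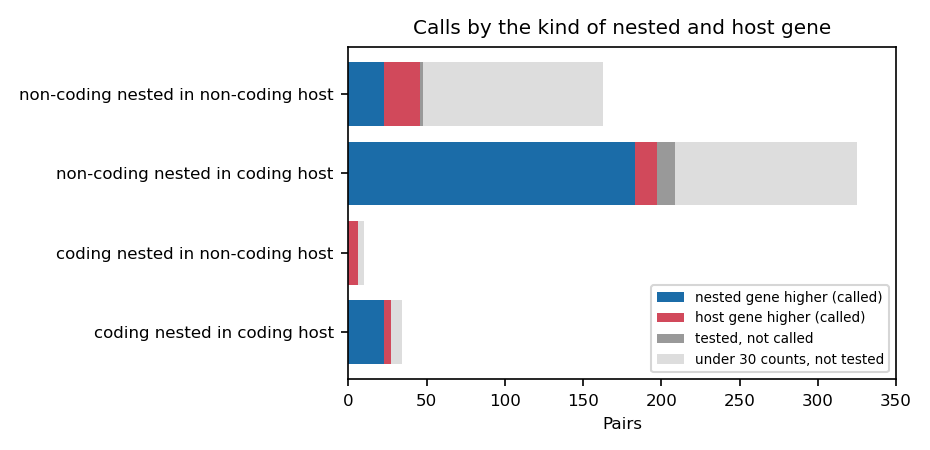
Number of pairs by the kind of nested and host gene, split by the edgeR call at an adjusted p of 0.05 and with pairs under 30 counts shown apart. Calls for the nested gene fill most of the tested pairs with a coding host, while the 6 tested pairs of a coding gene in a non-coding host are all called for the host.

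By annotation of the nested gene, antisense genes were called higher in 67 of 69 tested pairs and never lower. Processed transcripts were called higher in 9 of 9, misc_RNA genes in 10 of 10 and lincRNA genes in 28 of 34. Processed pseudogenes, which can share reads with their parent genes, were called higher in 18 of 29 and lower in 7. Small nucleolar RNA genes were called higher in 3 of 9 and lower in 4. By length, 62 of 89 tested nested genes under 200 bases were called higher, and 167 of 201 longer ones. Over all opposite-strand pairs the shorter gene was called higher in 65.7%, and nested genes under 200 bases and processed pseudogenes are close to that share. The weakest call for a nested gene was Mir3082 in Jmjd8, at 1344, 1031 and 1188 counts per kb against 887, 683 and 645, a pooled ratio of 1.61.

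Coding genes in non-coding hosts included Med10, a subunit of the Mediator complex, with 6.96, 0 and 5.8 counts per kb inside Gm26819, which had 624, 577 and 461. The log2 ratio was -7.03 ± 0.53 (SE, adjusted p = 5.0e-06), and -6.40 without replicate 3. Icam4, an adhesion molecule gene of red cells, had 16.2, 11.7 and 9.01 counts per kb inside Gm47079, which had 221, 188 and 174. Icam1 also lies opposite Gm47079, with 511 shared bases. The others called were Hist2h3b and Hist2h2bb in Gm20628, Gm10260 in Gm26619 and Ldhal6b in Gm29050, with 0 or 1 count in the nested gene over the 3 libraries.

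Coding genes in coding hosts for which the host was higher were Pdcd2, Rangrf, Smco3 and Gm10337. Pdcd2 had 17.4, 19.0 and 17.0 counts per kb within the long last exon of Tbp, the TATA-binding protein gene, which had 152, 150 and 103. The log2 ratio was -2.90 ± 0.23 (SE, adjusted p = 7.2e-06). Rangrf, a Ran regulator gene, had 22.9, 23.6 and 17.3 counts per kb inside the mitochondrial carrier gene Slc25a35, at 175, 154 and 132. Smco3 had 7.83, 10.4 and 6.96 inside BC049715, at 115, 112 and 82.2. Gm10337 had 509, 370 and 315 in the kinase gene Map3k12, at 1071, 818 and 734. Its call was the least firm, with an adjusted p of 0.0015 that became 0.051 without replicate 4 (log2 ratio -1.11).

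A host can face more than 1 gene. Among the 18 protein-coding hosts' pairs called for the host, 10 had another protein-coding gene sharing 100 or more exonic bases on the nested gene's strand, or 55.6%, against 22 of 206 pairs, or 10.7%, where the nested gene was called higher. These are counts of pairs, so a host with several nested genes enters more than once. Tlcd1 is an example, entered with 2 nested genes, and had 5524, 4576 and 3639 counts per kb. It shares 506 bases with Rpl23a, a ribosomal protein gene, beside the small nucleolar RNA genes Snord4a and Snord42a, which guide methylation of ribosomal RNA and had at most 12 counts in a library. Map3k12 shares 1571 bases with the RNA-binding protein gene Pcbp2. Tctn1 shares 1574 with the proton channel gene Hvcn1, and Smarcd3, a chromatin remodelling subunit gene, 2466 with Chpf2. The part of these partners in the host's counts was not tested. Nor was it examined how fragments inside both a partner and a nested gene of the same strand were counted.

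The host with most counts was CT010467.1, at 33723, 37037 and 41019 counts per kb, around Gm42418 at 87.4, 27.3 and 134. CT010467.1 is annotated as rRNA and Gm42418 as lincRNA. The sequence is multi-copy, so the split of reads between copies is uncertain. Snora73b, a small nucleolar RNA gene, had 1, 0 and 0 counts inside Gm17300, which had 2447, 1940 and 1768 counts per kb. Gm26892 in Mfsd4a, Gm15481 in Tctn1 and the ribosomal protein pseudogene Rps23-ps1 in Gm5148 were also called for the host, with 52, 16 and 5 counts against 5610, 13027 and 5191. Rps23-ps1 shares sequence with its parent gene, and its count is uncertain for that reason.

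miRNA was the most frequent annotation of a nested gene, with 140 pairs. The nested miRNA was called higher in 37 of 55 tested pairs and the host in 15. Over all opposite-strand pairs these calls were 65.7% and 26.1%, and the shares for nested miRNAs lie close to them. A mature sequence was found by symbol in the RefSeq table (GRCm38.p6) for 67 of the 140. Sequences of hairpin pairs follow, since a miRNA is annotated on each strand of these sites. The seed (bases 2 to 8) is in capitals, and sequences run 5′ to 3′.
miR-142a-3p: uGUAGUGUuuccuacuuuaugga
miR-142b: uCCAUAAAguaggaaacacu
miR-24-3p: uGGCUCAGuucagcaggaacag
miR-3074-5p: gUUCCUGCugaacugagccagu
The reverse complement of miR-142b matches miR-142a-3p over all of its 20 bases (chr11:87756906-87756925), and that of miR-3074-5p matches miR-24-3p over 20 bases.

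Mir142, a miRNA gene of blood cells, had no count in any of the 3 libraries, while Mir142b on the other strand, of which it is a part, had 462, 458 and 480. With the floor of 3 counts over the 3 libraries, Mir142b was at least 259.7-fold higher per kb (log2 ratio called at an adjusted p of 8.8e-06). At the site on chromosome 13, Mir24-1 had no count and its host Mir3074-1 had 36, 25 and 19, at least 21.3-fold higher per kb. At the site on chromosome 8 the order of nested gene and host is the other way round. There Mir3074-2 is nested in Mir24-2 and had 11, 10 and 10 counts while Mir24-2 had none, so the nested gene was at least 13.3-fold higher per kb. At all 3 sites the counts stood on the strand of Mir142b, Mir3074-1 or Mir3074-2. Hairpins of this size can be touched by fragments of a longer transcript, which these counts do not separate.

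In protein-coding hosts, Mir762 had 7842, 4684 and 3776 counts per kb opposite Bcl7c, a chromatin remodelling subunit gene with 2.08, 1.94 and 0.831. Mir6340 had 2647, 1874 and 1966 opposite the vesicle transport gene Rab22a, which had 0.694, 0.694 and 0.833. Mir671, nested in Smarcd3, and Mir3061, nested in 9430098F02Rik, had no count, while their hosts had 1613, 1356 and 1197, and 657, 631 and 512. 9430098F02Rik is itself nested in Ppp2ca, with 220, 211 and 171 counts per kb against 19.8, 8.28 and 11.7 in Ppp2ca. Along this site the strand opposite Ppp2ca was thus the higher one for both of its annotated antisense genes. Ppp2ca itself lies on the strand of Mir3061, and Chpf2 on that of Mir671. How fragments inside several genes of the same strand were counted was not examined. The missing counts of Mir671 and Mir3061 may therefore not show absence.

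Predicted miRNA genes nested in H2A histone genes formed a family of 20. Their hosts are H2afj, H2afx and 18 genes of the Hist clusters. Replication-dependent histone mRNAs end in a stem-loop and carry no poly(A) tail, while H2afx can make both kinds. The 2 with most counts are shown in full, with the bases at which they differ in capitals. Gm44364 lies at chr6:136808543-136808683 and Gm44335 at chr9:44334965-44335105, both on the minus strand (GENCODE vM21, mm10).
Gm44364: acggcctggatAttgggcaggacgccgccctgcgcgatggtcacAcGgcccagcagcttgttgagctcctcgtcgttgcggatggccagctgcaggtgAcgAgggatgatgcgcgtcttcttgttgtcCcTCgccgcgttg
Gm44335: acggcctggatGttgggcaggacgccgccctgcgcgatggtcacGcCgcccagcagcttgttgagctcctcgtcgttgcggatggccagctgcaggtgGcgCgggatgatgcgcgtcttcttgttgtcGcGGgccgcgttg
They differ at 8 of 141 bases, an identity of 94.3%, so a fragment that covers few of these positions cannot be placed with certainty.

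Gm44364 in H2afj had 3346, 2230 and 2111 counts and H2afj had 59, 15 and 23. Gm44335 in H2afx had 1433, 849 and 788 counts and its host 15, 8 and 3. The 18 nested genes in Hist-named hosts had 0 to 150 counts over the 3 libraries together, with a median of 2.5, and 12 of them had any. The highest of these was Gm44313 in Hist3h2a, with 150 counts and none in the host. The counting command in the file headers has no option for reads that map to several places, so counts of near-identical histone genes are uncertain.

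**Figure D5:**
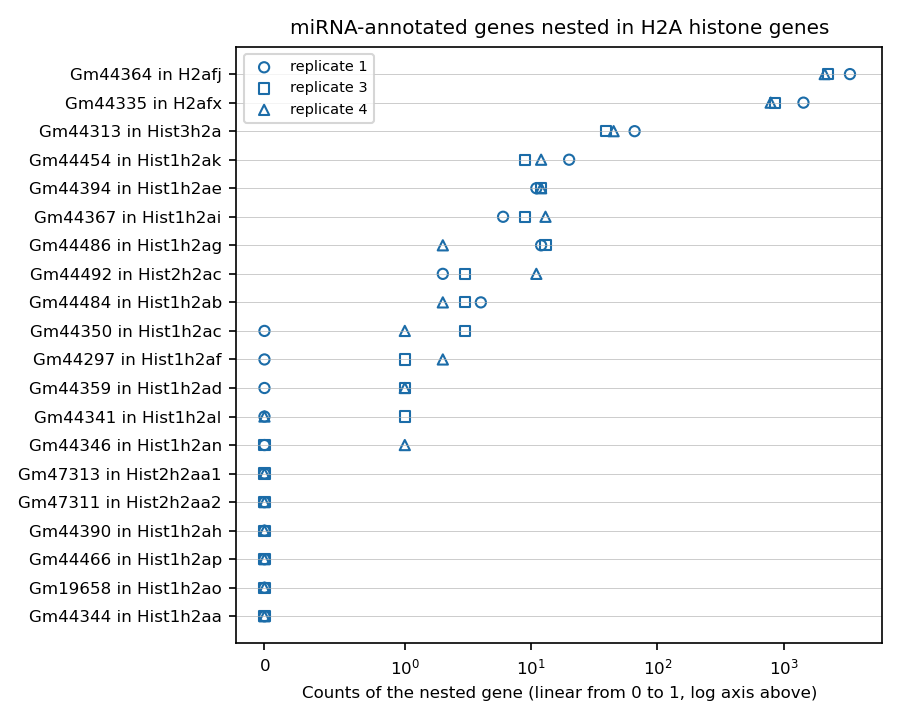
Counts of the 20 miRNA-annotated genes nested in H2A histone genes, 1 symbol per replicate, on an axis that is linear from 0 to 1 and logarithmic above. Gm44364 and Gm44335 lie above all others, with 788 to 3346 counts, and Gm44313 follows with 150 over the 3 libraries.

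Of the 506 hosts, 22 held 2 or more nested genes. Among the 10 of these in which each nested gene had 10 or more counts, the densities of the highest and lowest nested gene of a host differed by a median of 2-fold. 5430416N02Rik held 4 genes annotated as misc_RNA with 1623 to 4109 counts per kb against 2.95 in the host, all pooled. Dleu2 held 4 with 336 to 675 per kb against 1.15 in the host. In Cep295, a centrosome gene, the 3 nested genes ran from 231 to 1960 per kb, and in Adam19 the 2 were at 648 and 1284. Malat1, an abundant nuclear RNA, had 12.3 counts per kb, and the 2 genes nested in it had 6195 and 8051. Ppp2ca was the exception in range, with 603 per kb in 9430098F02Rik and 55360 in Gm24157, a ratio of 91.8. Gm24157 has 111 bases and 9430098F02Rik 2986.

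Cd46, the gene of a complement regulator, had 17, 9 and 22 counts. Mir29b-2 and Mir29c, nested in it, share the seed AGCACCA in their 3p arms and had none. Both genes are so short that this difference from the host was not detectable at this depth (adjusted p = 0.36 and 0.35).

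Hosts of tissue-restricted families, chosen by symbol, were often without counts together with their nested genes. Of 34 such pairs 18 had no count in either gene, against 128 of all 532, and the nested gene had a count in 12. Hosts of the 18 included olfactory receptor, keratin and protocadherin genes. In 4 of the 34 pairs the host is Kcnq1ot1, an imprinted antisense RNA that only its symbol puts in this list. The pairs with 30 or more counts numbered 5, of which 4 were called for the nested gene (65.7% over all opposite-strand pairs). Gm20402 had 1645, 1317 and 888 counts per kb opposite Foxo1, a transcription factor gene that also acts in T cells, with 2.54, 1.73 and 2.31. Gm26735 had 192, 133 and 107 opposite Sox4, with 6.47, 4.17 and 4.17. Gm27516 had 33, 24 and 15 counts opposite Foxf2, which had 4, 0 and 0. In the Nlrp12 locus 6 miRNA genes of the Mir290 cluster, known from embryonic stem cells, had no count, nor had the 6 miRNA genes antisense to the imprinted gene Rtl1 or the 6 misc_RNA genes in Six3os1.

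Hosts of broadly expressed families gave 11 pairs, and the nested gene had a count in all of them, against 325 of all 532 pairs. Of 9 tested pairs, 8 were called for the nested gene and none for the host (65.7% and 26.1% over all opposite-strand pairs). The gene ENSMUSG00000085425, which has no symbol in vM21, had 4781, 3799 and 3339 counts per kb opposite the ubiquitin-conjugating enzyme gene Ube2l3, at 4.64, 4.11 and 4.11. Cox20, an assembly factor gene of respiratory complex IV, had 618, 601 and 541 inside the nuclear ribonucleoprotein gene Hnrnpu, at 127, 82.9 and 84.0. The log2 ratio was 2.61 ± 0.22 (SE, adjusted p = 1.1e-05), and in this pair both genes are coding.

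Some pairs were close to equal. ENSMUSG00000087554 in Ccdc116 had a pooled ratio of 0.940 (exact 95% counting interval 0.776 to 1.13) and Gm45315 in Gm18194 one of 1.25 (0.322 to 3.52). Neither was called, and the interval of the latter is wide. The longest nested genes without a count were 4932430I15Rik in Shroom3, Gm44067 in Gm26656 and Gm37913 in Gm37245, with 3306, 2971 and 2544 exonic bases. Gm26656, almost the same length as Gm44067 and on the other strand, had 20, 29 and 29 counts.

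Features that the rule did not use were also examined. In protein-coding hosts with vM21 coding coordinates, most bases of the nested gene lay in the host's 3′ UTR in 136 pairs, in coding sequence in 119, in the 5′ UTR in 32 and in other exonic sequence in 70. Pairs in coding sequence were called for the nested gene in 61 of 64 tested and pairs in the 3′ UTR in 92 of 102. Pairs in the 5′ UTR were called so in 15 of 21 and pairs in other exonic sequence in 38 of 49. Nested genes with 2 or more exons were called higher in 125 of 139 tested pairs and single-exon genes in 104 of 151. The share over all opposite-strand pairs was 65.7%, to which single-exon genes are close. By strand, 125 of 158 tested pairs were called for a nested gene on the plus strand and 104 of 132 on the minus strand.

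Splicing on opposite strands uses different end sequences, so annotated introns of the 2 genes of a pair rarely coincide. Of 255 annotated introns in 177 spliced nested genes, 9 had both ends equal to those of a host intron, in 3 genes. Gm20721 had 7 of these 9, out of 12 introns. Introns of the other spliced genes among the 20 densest matched none of their host's.

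The poly(A) signal words AATAAA and ATTAAA were looked up in the last 50 bases of the longest transcript of each gene. Of 173 nested antisense, lincRNA, processed transcript and TEC genes, 11.6% held one on their own strand and 4.62% on the other. Other genes of these 4 annotations held one in 39.2% and 7.74% of 10366, and protein-coding hosts in 66.8% and 10.7% of 337. The words can overlap each other, a match is a string of letters and not a used site, and annotated ends may be incomplete.

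The spread between libraries was also measured. Over the 290 tested pairs, the rank correlation of nested density between libraries was 0.99 for each of the 3 pairs of libraries, and 0.93 to 0.96 for hosts. These are across genes, which are not independent replicates. Pooled nested and host densities had a rank correlation of -0.14 across the same pairs. Pairs were kept by the sum of both counts, which can by itself lower this correlation, so no meaning is given to its sign. The coefficient of variation of CPM, over genes with 300 or more pooled counts, had a median of 9.03% for 145 nested genes, 9.32% for 51 hosts and 9.24% for all 2036 genes. The widest were Gm42418, with 160, 50 and 245 counts, and Gm26716, with 179, 351 and 132. Gm45507, in Bnip3, followed at 1285, 1848 and 1074 CPM.

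The pairs nearest the 90% limit were as follows. Just inside it, Rangrf in Slc25a35 had 90.7% of its bases covered and C78334 in Xrn1 90.6%, with 63.8 against 460.4 and 817 against 1.72 counts per kb. Just outside it, Abhd1 in Preb had 89.6% and Gm13625 in Ssb 89.8%, with 1072 against 75.5 and 1810 against 282 counts per kb. In 3 of these 4 the inner gene was the higher one.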

How the data were processed

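The authors deposited whole-number counts of fragments for each gene. They ran featureCounts 1.4.6-p4 on STAR output with GENCODE vM13 exons (mm10), strand setting 1 and both mates mapped, per the file headers. For STAR the sources used here name no version. Symbols and biotypes came from GENCODE vM21, which lacked 224 of the 50600 identifiers. Exons were merged per gene and intersected on opposite strands with bedtools 2.31.1.

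Each pair was tested on its counts with edgeR 4.0.16 (R 4.3.3), quasi-likelihood, with library as a term, offsets for library total and exonic length, at least 30 counts per pair and Benjamini-Hochberg adjustment over all opposite-strand pairs at 0.05. The fit was checked on simulated counts. Tables were made with Python 3.11.15. DESeq2 1.42.0, limma 3.58.1, other filters, overlaps and lengths, and leaving out libraries were alternatives. Replicate 2 was left out for its depth.

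The members, lists and tests were chosen with earlier results of these data known. Named pairs were the 20 densest nested genes, up to 10 pairs with the host higher, the 5 hosts with most nested genes and a count of 30, T cell genes, the 3 most equal pairs, the 3 longest nested genes without counts, up to 3 pairs per family list and 2 pairs on each side of 90%. Other genes, including the miRNA and H2A-nested ones, were chosen after their values were seen. 1 of the 3 most equal pairs is not reported here.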

Additional observations from a re-analysis of the deposited data

Results flagged for a closer look

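Replicate 2, with 5016 counts, stood apart from the other 3 libraries in the share of counts held by nested genes. That share was 7.42% in replicate 2 (372 counts, Wilson 95% interval 6.72 to 8.17), against 10.3% to 10.8% in the others. The share in the 5 nested genes with most counts was likewise low there, at 2.49% (2.1 to 2.96), against 4.73% to 4.99%. The share in hosts other than CT010467.1 was lowest in replicate 4, at 3.49%, against 3.6% to 3.62% in the other 3. Chance flags about 1 in 20 groups of 4 at this limit. Replicate 2 was not used in the comparisons, and its 7.42% is given as a value outside them.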

How the results depend on the processing

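The 229 calls for the nested gene, of 290 tested pairs, stayed within 1.5 times under every alternative run. They ran from 154 of 188 tested pairs (at least 300 counts) to 280 of 363 (overlap of 75%). With 1 library left out they ran from 217 to 221. The number of calls follows the number of pairs tested in the first 2 of these settings. The 47 calls for the host ran from 41 to 44 with 1 library left out. They fell to 31 of 188 tested pairs with at least 300 counts and to 27 of 201 with nested genes of 200 or more bases. With protein-coding hosts only they fell to 18 of 236 tested pairs, against 47 of 290 in the main setting. The other 29 of the 47 calls had a host that is not protein-coding. The library term (replicate block) was in the fit, and without it the counts were 229 and 47. The pairs with the nested gene above in each library were 95 when replicate 2 was required too, where most genes have no count. The median host density of 0.487% of the nested density became 0.698% with at least 10 counts, 0.261% with at least 300, 0.75% with no filter beyond 1 count and 0.695% with an overlap of 75%. With lengths raised by 200 and 500 bases, chosen after seeing the data, it became 0.761% and 1.17%. The share of counts in nested genes was 9.81% over all 4 libraries, 6.61% with an overlap of 100% and 12.6% with 75%. That in hosts was 2.68% and 9.64% at those overlaps. CT010467.1 is no host at 100%, because the gene in it is covered to 99.5%. Of 327 refits of named pairs, 325 kept direction and call. Named pairs in which a gene had no pooled count, and refits that left a pair under 30 counts, are not among the 327. Leaving out 1 library still moved some called log2 ratios by over 1.5 times in fold. Without replicate 3, Gm44170 in Sec61a1 went from 11.47 to 10.81, C78334 in Xrn1 from 8.92 to 8.33, Gm15481 in Tctn1 from -5.73 to -6.39, Rps23-ps1 in Gm5148 from -6.80 to -6.18 and Gm42418 in CT010467.1 from -9.02 to -8.41. Without replicate 1, Snora73b in Gm17300, which had its only count there, went from -10.19 to -13.65, the largest of these shifts. In that refit Gm27516 in Foxf2 went from 8.61 to 10.93. Gm26916 in Dleu2 went from 8.75 to 9.80 and Gm16034 in Adam19 from 8.15 to 8.82. Further named pairs moved by over 1.5 times and are not listed. The near-equal pair of ENSMUSG00000087554 in Ccdc116 ran from -0.22 without replicate 3 to 0.038 without replicate 4. Depth limits short genes most, since 3 counts in 100 bases already make a high density.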
